A study of Mus musculus with 3 samples.

Results

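Bone marrow stromal cells that carried UMIs of the leptin receptor gene Lepr, of Ly6a (which encodes Sca-1) and of the chemokine gene Cxcl9 numbered 512 of the 24081 cells kept from 3 libraries, and 470 of them came from the library of 24-mo-old mice. A LepR+ cell was taken as a cell with at least 10 UMIs (unique molecular identifiers, each counted as 1 captured transcript) of Cxcl12, at least 1 UMI of Lepr and no UMI of the endothelial gene Cdh5, and a cell of the class described here had in addition at least 1 UMI of Ly6a and at least 1 of Cxcl9. These limits held for 512 of 4107 LepR+ cells. Because measured counts chose the cells, the levels of Lepr, Cxcl12, Cdh5, Ly6a and Cxcl9 are given below as a description only.

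LepR+ stromal cells lie around the blood vessels of the marrow and are the main source of stem cell factor (Kitl) and Cxcl12, factors that keep hematopoietic stem cells in their niche, and they include precursors of bone-forming cells and adipocytes. Interferons bind receptors that act through JAK kinases and STAT transcription factors. Interferon-gamma (type II) acts mainly at DNA sites called GAS, and type I interferons act mainly at interferon-stimulated response elements. Cxcl9 is a classic target of interferon-gamma and draws T cells that carry the receptor CXCR3, and Ly6a is itself interferon-inducible in several cell types.

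The libraries held cells of untreated wild-type mice of the C57BL/Ka background aged 2, 12 or 24 mo. After enzymatic dissociation, cells without CD45, CD71 and the markers of the blood lineages were sorted. Each age was 1 library pooled from 3 mice, and the study aged both males and females. No barcode names its mouse, so there was no replicate and no test between ages or classes, and every interval below is an exact 95% interval for counting error only. The filters of the study left 7533, 6821 and 9727 cells at 2, 12 and 24 mo, and 1630, 603 and 1874 of these were LepR+, at a median depth of 4907, 5796 and 4592 UMIs. Pairs of libraries shared 20 to 30 cell barcodes.

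Over all LepR+ cells, the share with both Ly6a and Cxcl9 was higher at each later age. It was 0.429% at 2 mo (7 of 1630 cells, Clopper-Pearson interval 0.173 to 0.883%), 5.80% at 12 mo (35 of 603, 4.08 to 7.98%) and 25.1% at 24 mo (470 of 1874, 23.1 to 27.1%). Cells with at least 2000 UMIs were also thinned to 2000, which sets them to the same depth, and the 101, 48 and 164 LepR+ cells with fewer were left out. The shares were then 0.196% (3 of 1529 cells), 2.34% (13 of 555) and 21.0% (359 of 1710). The intervals of the 3 ages did not overlap at full depth, but each age is 1 pool of mice and the spread between mice cannot be seen.

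**Figure D1:**
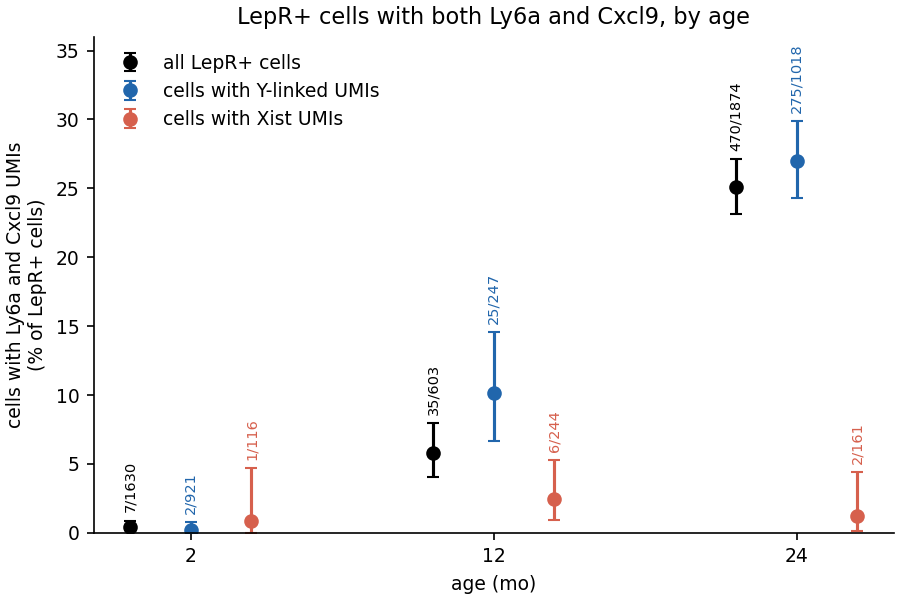
Share of LepR+ cells with UMIs of both Ly6a and Cxcl9 (y axis, percent of LepR+ cells) by age in mo (x axis), for all LepR+ cells, for cells with UMIs of Y-linked genes and for cells with UMIs of Xist. Points are shares, bars are exact 95% binomial intervals for counting error, and the counts stand above the bars. At 24 mo the share was 27.0% in cells with Y-linked UMIs and 1.24% in cells with Xist UMIs.

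The class was not spread evenly over the mice. Xist, the RNA of the inactive X chromosome, marks cells of females, and UMIs of 4 Y-linked genes (Uty, Kdm5d, Ddx3y and Eif2s3y) mark cells of males, so cells with either kind come from different mice of the same library. At 24 mo 275 of 1018 LepR+ cells with Y-linked UMIs carried both Ly6a and Cxcl9 (27.0%, 24.3 to 29.9%), against 2 of 161 cells with Xist (1.24%, 0.151 to 4.42%). At 12 mo the shares were 10.1% (25 of 247) and 2.46% (6 of 244), and at 2 mo they rested on 2 of 921 and 1 of 116 cells. In cells with Xist, few of which were in the class, the share was thus not higher at 24 than at 12 mo. Of the 470 cells at 24 mo, 275 had Y-linked UMIs alone, 2 had Xist alone, 1 had both kinds and 192 had neither kind. Among the 690 LepR+ cells with neither kind the share was 27.8%, close to that of cells with Y-linked UMIs. Sex and the single mouse cannot be told apart here, and for that reason values within cells with Y-linked UMIs stand beside the main results below.

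Ly6a and Cxcl9 occurred together at 24 mo. Among LepR+ cells with a Cxcl9 UMI, 70.7% also had a Ly6a UMI (470 of 665, 67.1 to 74.1%), and among those with no Cxcl9 UMI 8.35% did (101 of 1209). The same held at 2000 UMIs per cell (69.4% and 6.79%) and within cells with Y-linked UMIs (72.6% and 9.70%). At 12 mo the corresponding shares were 28.2% (35 of 124) and 26.9% (129 of 479). Within cells with Y-linked UMIs they were 54.3% (25 of 46) and 44.8% (90 of 201), and within cells with Xist 10.3% (6 of 58) and 6.99% (13 of 186), each pair with overlapping intervals. A difference by Cxcl9 was thus not detectable at 12 mo with that number of cells, and the pooled shares mix mice with unlike shares of Ly6a. Erythroid cells at 24 mo, a type not known to make Cxcl9, were taken as a background. Free RNA in the droplets and RNA made by these cells were not told apart. They showed Ly6a in 6.58%, Cxcl9 in 2.00% and both in 0.347% of cells at a median depth of 10978 UMIs. At 2000 UMIs these background shares fell to 1.97%, 0.308% and 0.024%, all far under the shares in LepR+ cells of the same library.

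Within the class, cells held few to many UMIs of the genes that chose them. At 24 mo the number of Ly6a UMIs per cell had a median of 5 and a maximum of 44, with 66 cells at a single UMI, and the number of Cxcl9 UMIs had a median of 13 and a maximum of 266, with 43 cells at a single UMI. The 35 cells of 12 mo had medians of 3 Ly6a and 4 Cxcl9 UMIs. Summed over the class at 24 mo, Cxcl9 stood at 5305 CPM and Ly6a at 1525 CPM. CPM are the UMIs of a gene summed over all cells of a class, expressed per 1000000 UMIs of that class, and a ratio of CPM compares the same gene between classes.

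The cells carried the markers of LepR+ cells and few of any other cell type. All 10 listed LepR+ markers had UMIs, Lepr and Cxcl12 by the rule itself. The list summed to 16782 CPM, against 27497 CPM in LepR+ cells with neither Ly6a nor Cxcl9, and without Cxcl12 to 6266 against 6888 CPM. Of the 470 cells at 24 mo, 1 had a UMI of Ptprc (CD45), 5 of Pecam1, 10 of the sinusoidal gene Emcn, 6 of Acta2, and none of Cd3e or Itgam (the exact interval for 0 of 470 reaches 0.782%). Of the markers listed for other types, 12 of 17 for T and NK cells, 7 of 11 for B cells and 8 of 21 for macrophages and dendritic cells, Adgre1, C1qa, Itgam and Itgax among them, were at 0. The summed level of the macrophage list was 803 CPM, against 930 CPM in LepR+ cells with neither gene. Arteriolar endothelial markers summed to 56.5 CPM against 26.1 CPM, and none of them had enough UMIs to be compared. Hemoglobin RNA differed between the classes: its genes took 3.44% of UMIs in the class and 15.4% in cells with neither gene. This difference, like the split by Xist and Y-linked UMIs, can move a ratio of CPM, so values with hemoglobin genes left out and values within cells with Y-linked UMIs are given where they bear on a result.

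The main comparison set the 470 cells (2090299 UMIs, median 3728.5 UMIs per cell) against the 1108 LepR+ cells of the same 24 mo library with no UMI of Ly6a or Cxcl9 (7403521 UMIs, median 5124), with Ly6a and Cxcl9 left out. A gene was compared where at least 20 UMIs were expected in the class. The expectation came from the level pooled over all LepR+ cells of the library, the class included. This filter let a gene pass through a high level in the class, which adds to the counts of higher genes. In LepR+ cells 111 of 122 UMIs of Cd74, 105 of 136 of Cd274 and 680 of 762 of Gbp4 lay in the class. Without it these genes would not have passed. A gene was called where its CPM ratio was at least 1.5 in either direction, a rule of size in place of a test. Of 9101 genes, 921 were higher (10.1%) and 514 lower (5.65%) in the class. The counts of called genes in each list below are to be read beside these shares. The median gene had a log2 ratio of 0.11, and changes are to be read against that shift. The split depended on the scaling: centred on the median gene, 649 were higher and 728 lower, and with hemoglobin genes out of the totals, which lowers every log2 ratio by 0.19, 538 were higher and 984 lower. Within cells with Y-linked UMIs, 648 of 7902 genes were higher (8.2%) and 557 lower (7.05%). Of the 921 higher genes, 11 had over 40% of their UMIs in a single cell of the class.

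Interferon-induced genes were higher nearly throughout. Ly6a and Cxcl9, which chose the class and whose lack chose the cells with neither, are themselves interferon-inducible. The direction of this difference was thus in part set by the rule, and its values are a description. The same limit holds where the class is set beside the other classes below. All 17 compared genes of the type II interferon-induced GTPases (guanylate-binding proteins, Gbp, and immunity-related GTPases, which act against intracellular pathogens) were higher, with a median log2 ratio of 3.9. So were 44 of 48 type I interferon-induced antiviral genes (median 1.70) and all 5 HIN-200 DNA sensors (median 1.76), and none of these 3 lists had a lower gene. Their 90 genes summed to 23629.6 CPM in the class against 6317 CPM in cells with neither gene, a ratio of 3.74 (3.69 to 3.79). The ratio was 3.59 within cells with Y-linked UMIs, where 62 of 66 compared genes were higher, 3.28 with hemoglobin genes out of the totals, and 3.17 without Iigp1, the gene with the most UMIs. For the GTPases alone the sums were 9643 and 898 CPM, a ratio of 10.7 (10.4 to 11.0).

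Gbp4, which passed the filter only through the class, showed the widest gap of any gene compared. It stood at 325 CPM in the class, 17.7 CPM in cells with Ly6a alone, 61.7 CPM in cells with Cxcl9 alone and 0.405 CPM in cells with neither, where it had 3 UMIs in all. Cxcl10, a chemokine for the same receptor as Cxcl9 and its neighbor on chromosome 5, stood at 772, 22.96, 159 and 1.62 CPM in the same order. Both genes were thus near absent from cells with neither and intermediate in cells with a single gene. At 2000 UMIs per cell, Cxcl10 was found in 26.8% of cells of the class and in 0.0986% of cells with neither (1.16% of erythroid cells), and Gbp4 in 38.2% and 0.0986%. Cxcl10 was therefore not a property of every cell of the class at this depth, whereas Iigp1, an immunity-related GTPase, was found in 96.5% of its cells, in 31.8% of cells with neither and in 4.29% of erythroid cells.

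Most other GTPases followed the same order of classes. Iigp1 stood at 4335 CPM in the class, 940 with Ly6a alone, 1402 with Cxcl9 alone and 234 with neither, a ratio of 18.5 (17.6 to 19.5) to the last and of 17.9 within cells with Y-linked UMIs. Gbp2 stood at 558, 79.5, 203 and 33.9 CPM, a ratio of 16.5 (14.3 to 18.9). Igtp stood at 366, 58.3, 88.5 and 15.9 CPM. Each of them was highest in the class and lowest in cells with neither, and cells with Cxcl9 alone lay above cells with Ly6a alone. Gbp6 (ratio 29.3), Tgtp2 (21.8), Gbp5 (21.2) and Gbp3 (15.8) were also among the 15 highest genes. All 17 GTPases compared were highest in the class, and 14 followed the full order. The 3 exceptions were Gvin1 (38.3 CPM in the class, 35.3 with Ly6a alone, 29.5 with Cxcl9 alone and 10.5 with neither) and Gm4070, in which Ly6a alone lay above Cxcl9 alone, and Gbp2b, which had no UMI in cells with Ly6a alone.

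**Figure D2:**
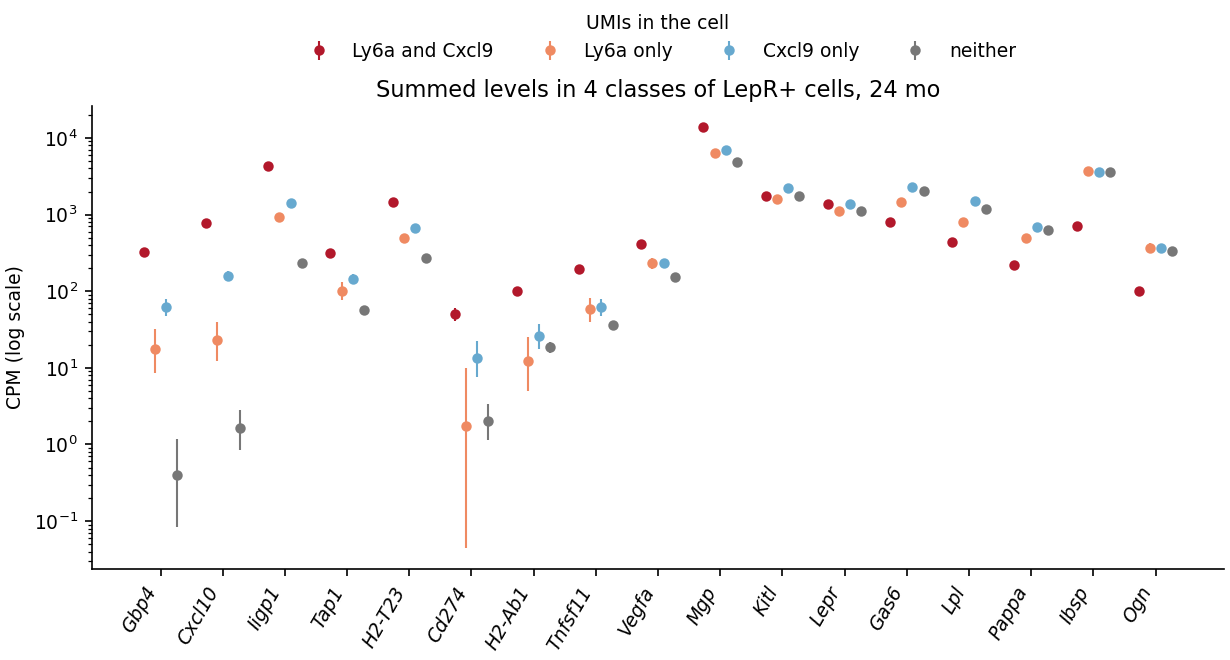
Levels of 17 genes (y axis, CPM on a log scale) in the 4 classes of LepR+ cells at 24 mo: UMIs of both Ly6a and Cxcl9 (470 cells), Ly6a alone (101), Cxcl9 alone (195) and neither (1108). Points are UMIs summed over the cells of a class and expressed as CPM, and bars are exact 95% Poisson intervals for counting error. Gbp4 and Cxcl10 range over more than 2 decades from neither to both, Kitl and Lepr stay close together, and Ibsp is low in the class with both genes alone.

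Among antiviral genes, Ifi27l2a was at 284 CPM against 7.02 CPM (ratio 40.5, 30.4 to 54.8), the RNA-binding antiviral gene Ifit3 at 256 against 16.1 CPM, and the nucleic acid sensor Zbp1, a switch of necroptosis, at 341 against 23.9 CPM. Ly6e, a relative of Ly6a that limits virus entry, was at 971 against 188 CPM. Of the HIN-200 genes, Ifi207 was 6.02-fold and Ifi204 3.62-fold higher. The 4 antiviral genes that were compared and not called included Rsad2 (103 and 85.4 CPM) and Isg20 (85.2 and 99.8 CPM), which are textbook type I targets.

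The start regions of these genes were searched for the 2 motifs named above, as a description of sequence. Windows of 250 bases before to 50 bases after the start came from RefSeq on GRCm38.p6 for 27025 genes, and each was searched on both strands for TTCNNNGAA (GAS) and for GAAANNGAAA, the core of an interferon-stimulated response element. Of all genes with a window, 9.55% held the first and 3.99% the second. Of 11 GTPases with a window, 6 held the first (54.5%) and 10 the second (90.9%), and of 47 type I antiviral genes with a window 10 held the first (21.3%) and 23 the second (48.9%). Of 30 hematopoietic niche factors with a window, none held the first and 3 the second (10.0%). No binding was measured, and a match of letters is not a site in use. The windows of 3 of the highest genes are printed with the matches in capitals, because they show a response element alone on either strand (Cxcl10 at chr5:92348840-92349139, minus strand, and Gbp2 at chr3:142620413-142620712, plus strand) and both motifs 2 bases apart (Igtp at chr11:58199306-58199605, plus strand).
Cxcl10: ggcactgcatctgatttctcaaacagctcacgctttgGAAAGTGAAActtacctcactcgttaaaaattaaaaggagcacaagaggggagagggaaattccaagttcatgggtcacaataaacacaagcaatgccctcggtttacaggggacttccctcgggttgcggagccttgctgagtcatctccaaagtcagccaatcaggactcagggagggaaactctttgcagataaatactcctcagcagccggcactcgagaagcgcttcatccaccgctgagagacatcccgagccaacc
Gbp2: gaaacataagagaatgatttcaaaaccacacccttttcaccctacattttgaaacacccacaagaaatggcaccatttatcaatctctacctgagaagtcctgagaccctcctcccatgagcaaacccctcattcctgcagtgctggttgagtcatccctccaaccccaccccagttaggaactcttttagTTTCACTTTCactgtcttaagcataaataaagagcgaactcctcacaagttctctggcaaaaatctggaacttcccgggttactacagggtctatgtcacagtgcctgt
Igtp: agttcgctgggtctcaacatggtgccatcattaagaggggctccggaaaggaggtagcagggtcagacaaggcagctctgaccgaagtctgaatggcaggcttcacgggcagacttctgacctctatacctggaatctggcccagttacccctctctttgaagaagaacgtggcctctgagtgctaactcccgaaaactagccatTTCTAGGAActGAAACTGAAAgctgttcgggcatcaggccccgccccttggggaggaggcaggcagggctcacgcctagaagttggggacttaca
The window of Cxcl9 (chr5:92328030-92328329, minus strand) held neither run of letters.

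Genes of interferon signaling were higher in part. Of 18 compared, 9 were higher and none lower, with a median log2 ratio of 0.69. Most of these were transcription factors: Stat2 was 4.14-fold, Irf7 5.90-fold, Irf1 3.71-fold, Irf8 2.64-fold and Irf9 2.24-fold higher. The receptors were not called: Ifngr1 was at 246 against 205 CPM, Ifngr2 at 124 against 90.4 CPM, Ifnar2 at 437 against 302 CPM and Ifnar1 at 48.3 against 51.5 CPM. Among the kinases, Jak2 was 1.79-fold higher, Jak1 had a ratio of 1.09 and Tyk2 of 0.828. Of 10 feedback inhibitors, 4 were higher, among them Usp18 (ratio 4.89), which blunts type I signaling, and Socs1 (3.88), which blocks JAK kinases. All 21 interferon genes of the list were at 0 in the class. They were also at 0 in cells with Ly6a alone, with Cxcl9 alone and with neither at 24 mo, so this was not particular to the class.

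Antigen presentation by MHC class I was higher across its machinery. Of 23 genes compared, 20 were higher and none lower (median log2 ratio 1.36), and the list summed to 24019 CPM against 11653 CPM (ratio 2.06, 2.04 to 2.08), or 1.93 within cells with Y-linked UMIs. The peptide transporter Tap1 was at 317 against 56.1 CPM, the non-classical class I gene H2-T23 at 1439.5 against 269.6 CPM, and the immunoproteasome subunits Psmb9 and Psmb10 were 3.62- and 3.06-fold higher. Nlrc5, the transactivator of class I genes, was 2.62-fold higher. The chaperones Pdia3 and Canx and the gene H2-Q10, with ratios of 1.28, 1.14 and 1.18, were the 3 that were not called.

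MHC class II genes were higher from a low base. Of 6 genes compared, 4 were higher and none lower, and the list summed to 363 CPM against 121 CPM. H2-Ab1 was at 100 CPM in the class, 12.4 with Ly6a alone, 25.9 with Cxcl9 alone and 18.6 with neither, and at 2000 UMIs it was found in 17.5% of cells of the class against 3.25% of cells with neither and 2.30% of erythroid cells. Cd74, the invariant chain, was at 53.1 against 1.08 CPM. It passed the filter only through the class, and 27% of its UMIs lay in a single cell. The class II transactivator Ciita had 4 UMIs in the class and was not compared. Of 7 checkpoint and T cell ligand genes compared, 4 were higher. Cd274 (PD-L1) was at 50.2 CPM in the class, 1.77 with Ly6a alone, 13.4 with Cxcl9 alone and 2.03 with neither. It too passed the filter only through the class.

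Chemokines and inflammatory genes moved in part. Of 12 chemokine genes compared, 5 were higher, Cxcl10 among them, and 4 lower, Cxcl12 among them. Ccl2, which draws monocytes, was at 140 against 46.9 CPM with 24.2% of its UMIs in a single cell, Cxcl16 was 2.10-fold higher, and Cxcl13 (ratio 3.54) had 56.3% of its UMIs in a single cell. Cxcl5 and Ccl9 had ratios of 0.105 and 0.292. Of 30 inflammatory and NF-kB genes, 11 were higher and none lower, with Il18bp, the decoy of interleukin-18, at 112 against 11.2 CPM and the acute-phase gene Saa3 at 210 against 25.7 CPM. Of 12 complement genes, 5 were higher (C4b 1130.5 against 671 CPM), and of 22 genes of cell death and the inflammasome 11 were higher and 1 lower, among the former Casp12 (2.78), Casp4 (2.44) and Pycard (2.27). Within cells with Y-linked UMIs 2 of 10 complement genes and 8 of 26 inflammatory genes were higher, beside 8.2% of all genes compared there.

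Immediate early genes, which many stimuli and also tissue dissociation induce within minutes, were higher as well. Of 18 compared, 14 were higher and none lower (12 of 16 within cells with Y-linked UMIs), with a median log2 ratio of 0.92. Egr1 was at 402 CPM in the class, 254 with Ly6a alone, 147 with Cxcl9 alone and 107 with neither, and Jun was 2.62-fold higher. The part that handling of the tissue has in them was not tested. The cell cycle inhibitor Cdkn1a was at 54.5 against 11.6 CPM. Of 35 genes of the cell cycle and its arrest 4 were higher and 2 lower, near the shares over all genes (10.1% and 5.65%).

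Hematopoietic niche factors divided. Kitl was at 1729 CPM in the class, 1597 with Ly6a alone, 2247 with Cxcl9 alone and 1746 with neither, a ratio of 0.990 (0.954 to 1.03) that was 0.851 within cells with Y-linked UMIs. Cxcl12, which had a part in choosing the cells, was at 10517 CPM in the class and between 18299 and 22339 CPM in the other 3 classes. Il7, which supports lymphoid progenitors, was at 46.9 against 68.8 CPM (ratio 0.682, 0.544 to 0.848), short of the limit. Of 33 niche factors compared, 9 were higher and 7 lower (median log2 ratio 0.11), beside 10.1% and 5.65% of all genes. Without Cxcl12 the list summed to 9060 against 9311 CPM (ratio 0.973). Within cells with Y-linked UMIs 6 of 29 were higher and 8 lower (median -0.18), and the ratio without Cxcl12 was 0.901.

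Single niche factors lay far apart. Tnfsf11 (RANKL), which drives osteoclast formation, was at 196 CPM in the class, 58.3 with Ly6a alone, 61.7 with Cxcl9 alone and 36.5 with neither, a ratio of 5.38 (4.60 to 6.29). Vegfa was at 415 against 152 CPM. On the other side, Gas6, a ligand of TAM receptors, was at 801 CPM in the class, 1452 with Ly6a alone, 2291 with Cxcl9 alone and 2021 with neither, and Il34, a ligand of the CSF1 receptor, had a ratio of 0.464. Gas6 was thus lowest in the class and next lowest in cells with Ly6a alone.

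Genes of bone and fat lay in both directions. Ibsp (bone sialoprotein) was at 702 CPM in the class but at 3672 with Ly6a alone, 3555 with Cxcl9 alone and 3598 with neither, a ratio of 0.195 (0.185 to 0.206) to the last and of 0.185 within cells with Y-linked UMIs. At 2000 UMIs it was found in 37.3% of cells of the class and in 87.7% of cells with neither. Phex, a regulator of phosphate in bone, was at 47.4 against 196 CPM, and Ogn (osteoglycin) at 100 against 334 CPM. The low level of Ibsp set the class apart from cells with either gene alone, which did not differ from cells with neither by the limit used.

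Of 22 osteogenic genes, 5 were lower and 2 higher, and within cells with Y-linked UMIs 3 of 20 were lower and 3 higher. Over all genes 5.65% were lower and 10.1% higher, and within cells with Y-linked UMIs 7.05% and 8.2%. The 2 higher genes were Mmp13, a collagenase (1290.2 against 325 CPM), and Spp1, osteopontin (1757 against 806 CPM). Spp1 had 25.5% of its UMIs in a single cell. At full depth it was found in fewer cells of the class (31.5% against 46.8%). The cells of the class also had a lower median depth (3728.5 against 5124 UMIs), and the part of depth in these shares was not tested. The sum of the list was lower in the class (ratio 0.821) but 1.16-fold higher without Ibsp. Of 20 adipogenic genes, 7 were higher and 4 lower: Adipoq was at 336 against 833 CPM and Lpl, lipoprotein lipase, at 442 against 1180.4 CPM, while Scd1, a desaturase of fatty acids, was at 135 against 27.1 CPM. Pappa, a protease of IGF-binding proteins, was at 221.5 CPM in the class, 498 with Ly6a alone, 679 with Cxcl9 alone and 621 with neither.

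Matrix genes were mixed. Of 43 compared, 15 were higher and 4 lower, beside 10.1% and 5.65% of all genes. Mgp, an inhibitor of calcification, was at 13873 CPM in the class, 6284 with Ly6a alone, 6973 with Cxcl9 alone and 4812 with neither, a ratio of 2.88 (2.84 to 2.93), and it took most of the difference in the sum of the list, whose ratio was 1.83 with it and 1.16 without. Col6a1 had a ratio of 0.571 and Col6a3 of 3.75. Fn1, at 174 against 2.30 CPM, rested on 6 cells with 77.7% of its UMIs in a single cell, and is no result about the class. The same holds for the platelet gene Ppbp (70.7% of UMIs in a single cell) among the 15 highest genes.

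**Figure D3:**
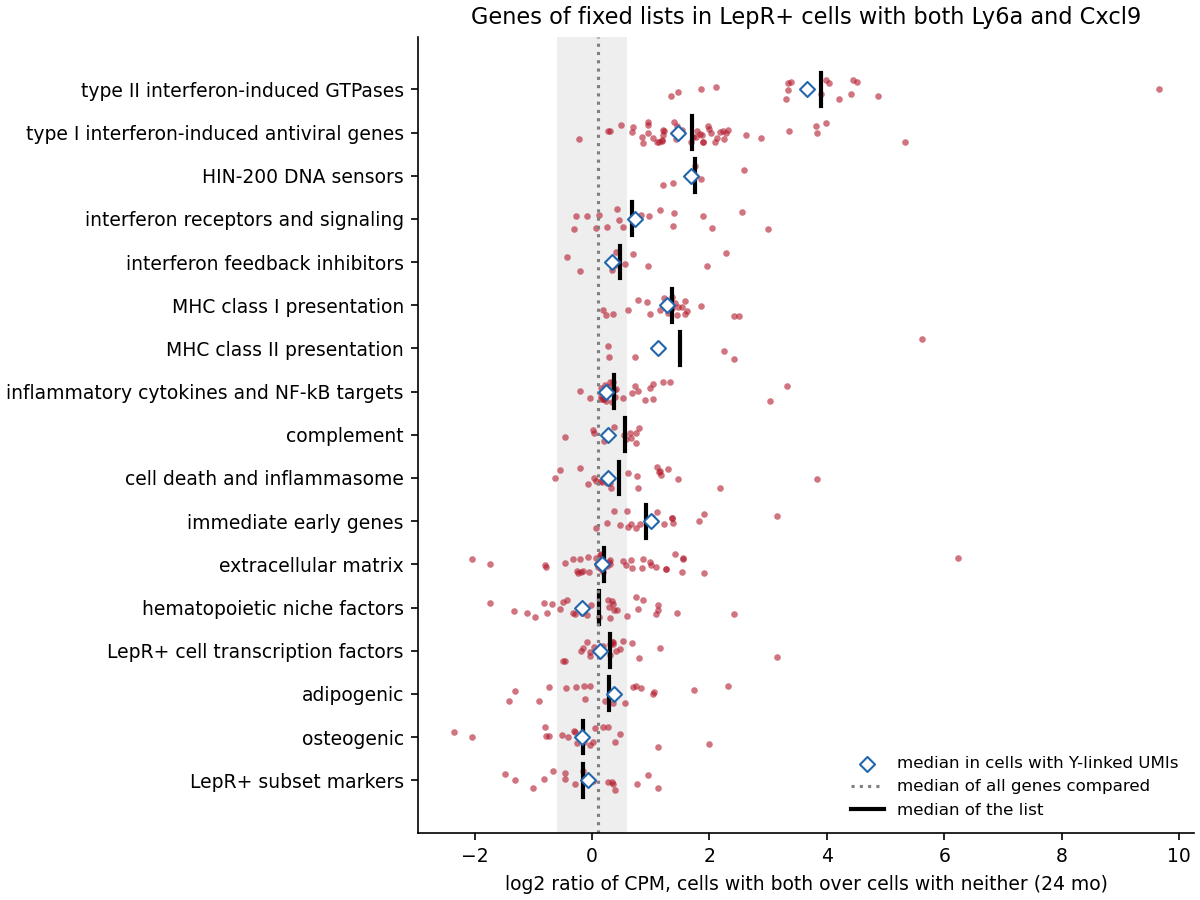
Log2 ratio of CPM (x axis) between LepR+ cells with both Ly6a and Cxcl9 and LepR+ cells with neither at 24 mo, for the compared genes of 17 lists (y axis). Each point is a gene, black bars are medians of a list, diamonds are medians within cells with Y-linked UMIs, the dotted line is the median of all 9101 genes and the gray band holds ratios under 1.5-fold. The GTPases have a median of 3.9 and the osteogenic list of -0.16.

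Of 21 LepR+ cell transcription factors, 4 were higher (beside 10.1% of all genes) and none lower, or 4 of 19 higher and 1 lower within cells with Y-linked UMIs. The 4 were Foxp1, Nr2f2, Klf6 and Klf4, the last of which also belongs to the immediate early genes and was at 33.5 against 3.78 CPM with 34.3% of its UMIs in a single cell. The list summed to 5353 against 5212 CPM, and Ebf3, a factor that keeps the LepR+ cell fate, was at 520 against 732 CPM. Pdgfra was at 443 against 261 CPM and Lepr at 1363 against 1109 CPM. Aldh1a2, a marker of a LepR+ subset, had a ratio of 0.498 that was 0.925 within cells with Y-linked UMIs, so its difference did not hold there. The 15 lowest genes were of 3 kinds. Neutrophil genes (Retnlg, Ngp and Camp) and Hba-a2 mark other marrow cells, and no listed neutrophil gene was called within cells with Y-linked UMIs, where 3 were compared. Xist and its antisense gene Tsix are transcripts of females, few of whose cells were in the class. The remaining genes, among them Grm7, Gabbr2 and P2rx2, which encode receptors for neurotransmitters, Rgs7bp, Crym and the chemokine gene Cxcl5, had ratios from 0.083 to 0.174 and were also lower within cells with Y-linked UMIs.

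Interferon-induced genes were also higher than in cells with a single gene, with smaller ratios than against cells with neither. Against the 101 cells with Ly6a alone, 475 of 4487 genes were higher (10.6%) and 244 lower (5.44%), and 45 of 55 interferon-induced genes were higher with a ratio of sums of 2.45 (2.38 to 2.52). Against the 195 cells with Cxcl9 alone, 524 of 7030 genes were higher (7.45%) and 467 lower (6.64%), and 41 of 62 interferon-induced genes were higher with a ratio of 1.96 (1.93 to 2.00). No interferon-induced gene was called lower in either. MHC class I genes followed, with 18 of 22 higher against Ly6a alone and 13 of 23 against Cxcl9 alone, and none lower. For cell death and the inflammasome 6 of 11 and 9 of 18 were higher and none lower. Immediate early genes had 4 higher and 1 lower of 12 against Ly6a alone, and 12 higher and none lower of 16 against Cxcl9 alone. Osteogenic genes and niche factors did not follow, and matrix genes differed between the 2 comparisons. The osteogenic list had 0 higher and 7 lower of 18 genes against Ly6a alone (ratio of sums 0.571) and 2 higher and 4 lower of 20 against Cxcl9 alone (0.754). Niche factors had 4 higher and 11 lower of 29 against Cxcl9 alone (ratio 0.583, against 0.654 in the main comparison). Matrix genes had 4 higher and 7 lower of 37 against Ly6a alone, and 15 higher and 4 lower of 43 against Cxcl9 alone.

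Inside the class, cells with more Cxcl9 UMIs had more interferon-induced RNA. Cxcl9 and Ly6a, which make the groups here, also chose the cells and are themselves interferon-inducible, so these orders are a description only. The 90 genes summed to 16449 CPM in 122 cells with 1 to 4 Cxcl9 UMIs, 21494 CPM in 131 cells with 5 to 14, 27159.9 CPM in 139 cells with 15 to 39 and 31247 CPM in 78 cells with 40 or more. Cxcl10 went from 76.1 through 324 and 576 to 2626 CPM over the same groups. By Ly6a the order was less regular: 18844 CPM at 1 UMI, 23424 at 2 to 4, 22268 at 5 to 9 and 28222 at 10 or more. Median depth also differed over the Cxcl9 groups (3338, 3447, 3987 and 4921.5 UMIs per cell), and its part was not tested. Kitl stayed between 1469.9 and 1974 CPM over the Cxcl9 groups.

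**Figure D4:**
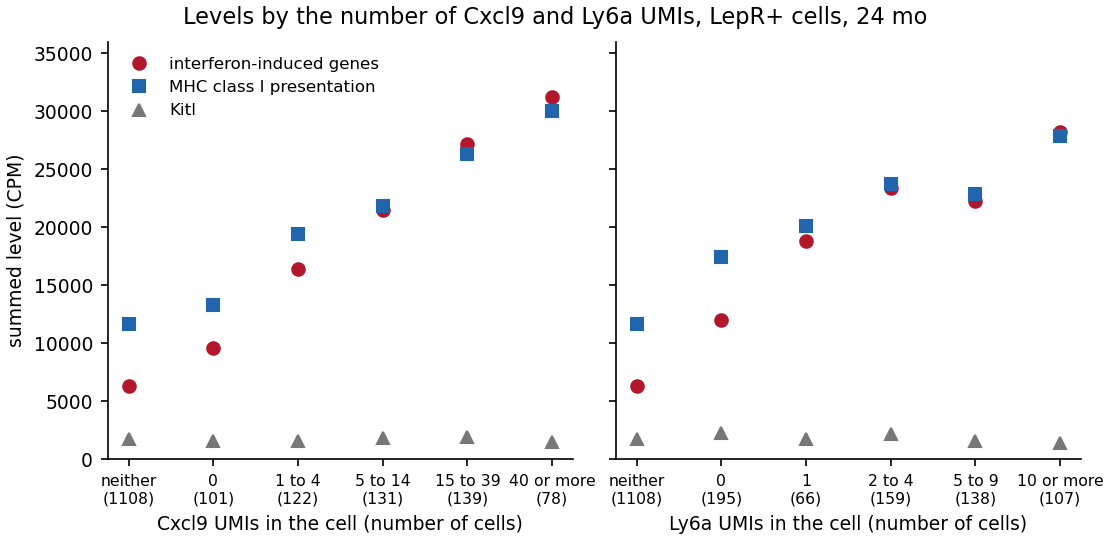
Summed levels (y axis, CPM) of the interferon-induced genes, of MHC class I presentation genes and of Kitl in LepR+ cells at 24 mo, grouped by the number of Cxcl9 UMIs (left) or Ly6a UMIs (right) in a cell, with the number of cells in brackets. The first 2 groups of each panel are cells with neither gene and cells with the other gene alone, and the rest are cells with both. Interferon-induced genes go from 6317 CPM in cells with neither to 31247 CPM in cells with 40 or more Cxcl9 UMIs.

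At equal depth most cells of the class stood apart from other LepR+ cells in this RNA. As the classes were made by interferon-inducible transcripts, this too is a description only. In cells thinned to 2000 UMIs, interferon-induced genes took a median of 2.55% of a cell's UMIs in the class at 24 mo (10th to 90th percentile 1.44 to 3.85%, 429 cells), 1.00% with Ly6a alone, 1.05% with Cxcl9 alone and 0.75% with neither. The 25th percentile of the class, 1.95%, was reached by 12.8%, 21.4% and 1.18% of cells of the other 3 classes. At 12 mo the 35 cells had a median of 1.00%, against 0.85% with Ly6a alone, 1.15% with Cxcl9 alone and 0.85% with neither, and 14.3%, 0.787%, 13.1% and 3.88% of cells reached 1.95%. At 12 mo the median of the class was thus below that of cells with Cxcl9 alone.

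**Figure D5:**
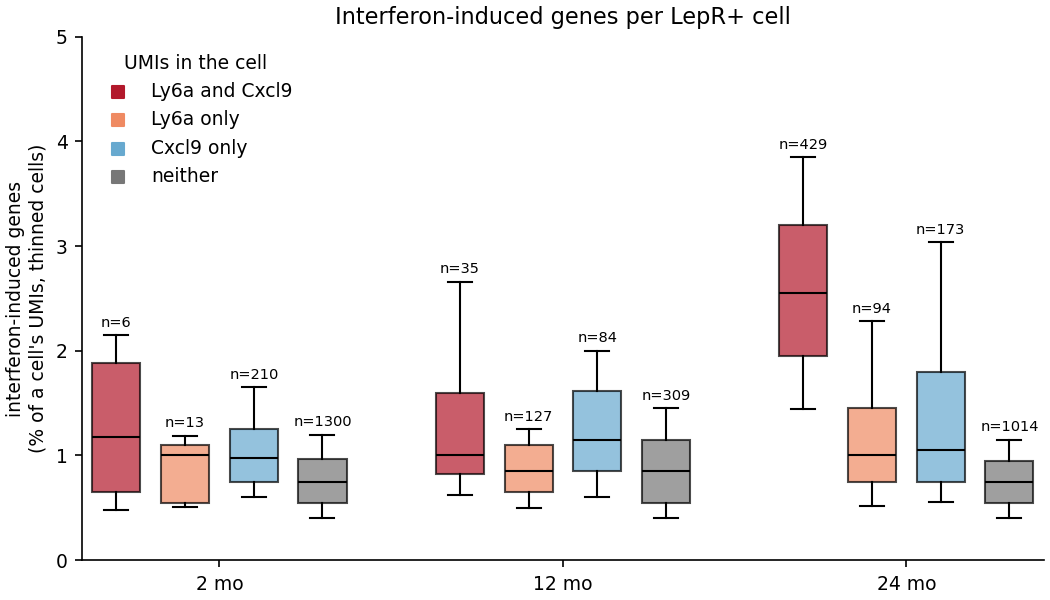
Share of a cell's UMIs from the 90 interferon-induced genes (y axis, percent, cells thinned to 2000 UMIs) in the 4 classes of LepR+ cells at 2, 12 and 24 mo (x axis). Boxes span the 25th to 75th percentile with the median as a line, whiskers span the 10th to 90th percentile, and n is the number of cells. The class with both genes has a median of 2.55% at 24 mo and 1.00% at 12 mo.

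Cells just outside the limits for Cxcl12 and Cdh5 had no less interferon-induced RNA than those inside, and cells just outside the other limits had less. With at least 1 Cdh5 UMI, 3 cells outside the gate had 28402 CPM, against 23629.6 CPM in the class. The 18 cells with 10 to 12 Cxcl12 UMIs had 21238 CPM of interferon-induced genes, and 11 cells with 7 to 9, outside the gate, had 26081 CPM. The 43 cells with a single Cxcl9 UMI had 13316 CPM, against 9638 CPM with none and Ly6a present, and the 66 cells with a single Ly6a UMI had 18844 CPM, against 12041 CPM with none and Cxcl9 present. The 40 cells with a single Lepr UMI had 17028 CPM, against 9026 CPM in 21 cells with none, in which erythroid markers took 395316 CPM.

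At 12 mo the class shared part of this pattern. Of 2691 genes compared with its 35 cells, 197 were higher (7.32%) and 292 lower (10.9%) than in the 350 cells with neither gene. Interferon-induced genes were at 12757 against 8402 CPM (ratio 1.52, 1.47 to 1.57), with 13 of 27 genes higher and none lower. The ratio was 1.72 within 25 cells with Y-linked UMIs and 2.34 within 6 cells with Xist, against 3.59 and, on 2 cells with Xist, 1.30 at 24 mo. Cxcl10 was at 363 against 24.9 CPM, Gbp2 at 232 against 50.7 CPM and Iigp1 at 1367 against 599 CPM. Cells with Cxcl9 alone were at 11618 CPM of interferon-induced genes, 427 CPM of Cxcl10, 90.8 CPM of Gbp2 and 1406 CPM of Iigp1, and their GTPases summed to 3125 CPM against 3081 CPM in the class. The class was thus above cells with neither at 12 mo, by a smaller ratio than at 24 mo over all cells and in cells with Y-linked UMIs but not in cells with Xist, and cells with Cxcl9 alone equaled or exceeded it in Cxcl10, Iigp1 and the GTPases together.

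Osteogenic genes stood lower than in cells with neither gene at 12 mo. Of 20 osteogenic genes, 13 were lower and none higher (the 10.9% above is the share over all genes), with a ratio of sums of 0.486 (0.468 to 0.504) and Ibsp at 877 against 3610 CPM. The ratio was 0.397 within cells with Y-linked UMIs and 0.855 within cells with Xist. Cells with a single gene were low as well, with sums of 9883 CPM (Ly6a alone) and 11442 CPM (Cxcl9 alone) beside 10356 CPM in the class and 21319 CPM with neither. Of 23 niche factors, 11 were lower and none higher, with Gas6 at 769 against 1682 CPM and Kitl at 1586.5 against 2038 CPM. Pappa (193 against 511 CPM) and Adipoq (563 against 1345 CPM) were lower as at 24 mo, and Mgp (15878 against 4451 CPM) was higher as at 24 mo.

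Over all cells of the class, those of 24 mo had more interferon-induced RNA than those of 12 mo. The ratio of sums was 1.85 (1.79 to 1.91), or 1.94 within cells with Y-linked UMIs, and for the GTPases 3.13, or 3.53 within cells with Y-linked UMIs. MHC class I genes had a ratio of 1.27. In the few cells with Xist the order was the other way, with 10165 CPM of interferon-induced genes in 2 cells at 24 mo and 24974 CPM in 6 cells at 12 mo. At 2 mo the 7 cells gave no profile: the 2 largest, with 53247 and 26398 UMIs, had 74.0% and 63.4% of their UMIs from hemoglobin genes.

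LepR+ cells with neither gene were chosen for the lack of 2 interferon-inducible transcripts, so their level of interferon-induced RNA was in part set by the rule and is given as a description. Between 24 and 2 mo, 763 of 11588 genes were higher (6.58%) and 973 lower (8.4%) in them, and of 69 interferon-induced genes 8 were higher and 5 lower, with a ratio of sums of 0.845 (0.835 to 0.856). Their level was 7473, 8402 and 6317 CPM at 2, 12 and 24 mo, and that of all LepR+ cells, whatever their Ly6a and Cxcl9 UMIs, was 7904, 9232 and 10295 CPM. Cells with Cdh5 UMIs and no Lepr UMI, which are endothelial, stood at 4966, 6989 and 12187 CPM at the same ages. Arteriolar and sinusoidal cells were not separated among them. At 24 mo they lay above the 10295 CPM of all LepR+ cells. They lay below the 23629.6 CPM of the class, but the class was chosen by interferon-inducible transcripts and they were not. These endothelial cells were 523, 102 and 110 in number.

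The class held a large part of some transcripts of the 24 mo library. With 4.83% of the kept cells and 2.21% of their UMIs, it held 12.4% of the UMIs of interferon-induced genes and 32.6% of those of the GTPases. It held 62.3% of the library's Cxcl10 UMIs, 58.9% of Gbp4 and 45.4% of Tnfsf11. Of Kitl it held 17.3%, of Il7 13.1% and of Cxcl12 9.89%. By the rule itself it also held 73.7% of Cxcl9 and 44.9% of Ly6a UMIs.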

How the data were processed

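The deposited values are raw UMI counts per gene and cell, which the authors made with Cell Ranger 6.1.2 on its mouse reference (mm10, GRCm38) from 10x 3' libraries, and they carry no normalization. Per the submitters' processing notes the study went on with Seurat 4.2.3 on R 4.0.2, steps that are not in these values. Reads that fit near-identical genes equally well (within the Gbp, Tgtp, HIN-200 and H2 families and the alpha hemoglobins) cannot be placed, so levels of single members are uncertain.

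Kept cells had 200 to 10000 genes, fewer than 7.5% mitochondrial UMIs and from 500 to 100000 UMIs in all, and were gated by UMI counts as described. Library totals were 84853330 to 104596341 UMIs. Counts were summed per class and scaled to CPM (python 3.11.15, numpy 2.4.6, scipy 1.17.1, pandas 2.3.3). Shares have Clopper-Pearson intervals, ratios conditional binomial and levels exact Poisson intervals, at 95%. Where a class had 0 UMIs, 3 counts stood in as a limit. With 1 library per age no test was possible and no p value is given. Classes within a library, ages, and cells with Xist or Y-linked UMIs alone were compared, and thinning, tighter limits, other scalings, the removal of doublet-like cells (scrublet in scanpy 1.11.5, the 6% highest scores) and of hemoglobin-rich cells were tried as alternatives. No doublets were removed in the main setting. The scripts were tested on simulated data with known ratios.

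Named genes were the 15 highest and 15 lowest of the main comparison, up to 5 highest and 3 lowest of each list, all of interferon signaling, and a set of fixed names. The cells, the 32 lists and this rule were chosen with earlier results of these data known. Of 728 listed genes 713 were found. Gene positions follow GRCm38, and start regions came from RefSeq (GRCm38.p6). Promoter windows of Ly6a and Gbp4 are not shown. Some genes that meet the rule are not reported here, though list counts include them. Experiments other than the sequencing of single cells were not analysed here.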

Additional observations from a re-analysis of the deposited data

Results flagged for a closer look

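Of 37 named genes that passed the 1.5-fold limit both at 24 and at 12 mo, 7 did so in opposite directions. Tnfsf11, Mmp13, Spp1, Ccnd2, Fcer1g and Socs2 were higher at 24 mo in LepR+ cells with both Ly6a and Cxcl9 than in cells with neither, and lower at 12 mo, and Des (desmin) was lower at 24 mo and higher at 12 mo. The log2 ratios at 24 and 12 mo were 2.43 and -0.68 for Tnfsf11, 1.99 and -1.64 for Mmp13, and 1.13 and -0.74 for Spp1. They were 0.97 and -0.81 for the cyclin gene Ccnd2, 0.86 and -1.78 for the Fc receptor subunit gene Fcer1g, 0.70 and -0.80 for Socs2, and -0.72 and 1.57 for Des. The difference between the ages was not tested, since each age is 1 library, and the 12 mo values rest on 35 cells. The interval of the 12 mo ratio of Tnfsf11 (0.355 to 1.03) holds 1, whereas that of Mmp13 (0.277 to 0.370) does not.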

How the results depend on the processing

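Each age is 1 pooled library, so mouse, sex and class cannot be told apart, and depth limits calls to genes with 20 expected UMIs. No paired analysis was possible because each group has 1 sample. Alternatives on hemoglobin, on the single cell with the most UMIs of a gene and on Iigp1 were chosen after seeing the data. The Xist cells alone gave no gene counts, with 2 cells of the class at 24 mo.

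The 24 mo share of 25.1% became 21.0% thinned to 2000 UMIs, 19.6% with at least 2 UMIs of each gene, 22.6% with at least 20 Cxcl12 and 2 Lepr UMIs, 27.2% under 5% mitochondrial UMIs, 1.24% in Xist cells and 29.8% without hemoglobin-rich cells (1% or more of UMIs). The 12 mo share of 5.80% became 2.34% thinned, 3.65% with 2 UMIs, 2.46% in Xist cells and 10.1% in Y-linked cells. The 921 higher genes became 435 thinned, 519 with the tighter gate, 485 without cells with UMIs of 4 markers of other cell types, 572 without hemoglobin-rich cells, 538 without hemoglobin genes, 5205 with no filter on low values and 341 at 100 expected UMIs. The 514 lower genes became 871 with the tighter gate, 931 without cells with those markers, 908 without hemoglobin-rich cells, 984 without hemoglobin genes, 950 by mean CPM per cell, 1716 with no filter and 120 at 100 expected UMIs, the filter setting how many genes were compared. The interferon ratio of 3.74 became 3.42 thinned, 4.00 with 2 UMIs, 3.43 with the tighter gate, 3.33 without cells with those markers, 3.79 without doublet-like cells, 3.80 under 5% mitochondrial UMIs, 3.59 in Y-linked cells, 3.30 without hemoglobin-rich cells, 3.33 weighted to the depth of the class, 3.30 by mean CPM per cell, 3.47 centred on the median gene, 3.28 without hemoglobin genes and 3.17 without Iigp1. Where no cause is named, the cause was not tested.

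Of 144 named genes past the limit, 123 to 142 kept the call under 13 settings. Log2 values that turned sign were -1.03 (thinned) and -1.77 (tighter gate) for Ppbp, -0.73 (tighter gate) for Pf4, -0.35 (mean CPM) and -1.66 (without its top cell) for Mfap5, -0.0802 for Spp1 and -0.0063 for Cd55 (thinned), and -0.18 for Tfrc (doublet-like cells out). For Bcl2l1 they were 0.0836 thinned, 0.27 with the tighter gate, 0.18 without cells with those markers and 0.13 without hemoglobin-rich cells. Without cells with those markers S100a8 was at 0.36, S100a9 at 0.14, the neutrophil list at 0.24 and the erythroid list at 0.0305, and in Y-linked cells the T and NK list was at -0.027. Scrublet marked 5.96% of the class and 5.14% of cells with neither gene.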

Other observations

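Some of the largest differences lay in genes of no list, which were picked after their values had been seen. Apod, a lipocalin that carries lipids, was at 1007 CPM in LepR+ cells with both Ly6a and Cxcl9 at 24 mo, 193 with Ly6a alone, 120 with Cxcl9 alone and 70.6 with neither, a ratio of 14.3 (12.9 to 15.7) that was 12.6 within cells with Y-linked UMIs and 3.82 at 12 mo. Its UMIs were found in 286 of the 470 cells. Ugcg, which makes glucosylceramide, was at 667 CPM in the class and 87.1 CPM with neither, and 347 cells held it. Rgs2, a brake on G protein signaling, was 11.3-fold higher, the serpin gene Serpina3f 6.61-fold and Cybb, a subunit of the phagocyte NADPH oxidase, 4.79-fold.

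In the other direction, Rspo2, an agonist of Wnt signaling, was at 19.6 against 89.1 CPM, the anion exchanger gene Slc26a7 at 48.8 against 194 CPM and Angptl1 at 55.0 against 186 CPM. All 3 were also lower within cells with Y-linked UMIs, with ratios of 0.246, 0.229 and 0.290.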
